A study of Mus musculus with 9 samples.

Results

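The genes described here encode the machinery that brings proteins into mitochondria. They are the protein-coding genes of a GRCm38 annotation (GENCODE M21) whose mouse symbol begins with Timm or Tomm and a digit, plus Pam16. The rule itself uses no measured value, but it was chosen with earlier results of these data known. The rule found 26 genes among the 55573 gene identifiers of the count tables, and all 26 were present in the tables. It set aside Tomm6os, an antisense transcript. RNA of splenic CD4+ T cells from B6 mice was sequenced, with 3 libraries in each of 3 groups. The first group was activated for 3 hours with antibodies against CD3 and CD28 at 39 °C, a febrile temperature, the second was activated in the same way at 37 °C, and the third was naive, that is, not activated. No genotype, age or sex is given. The cells plated on the antibodies are described as spleen cells, so the order of CD4+ isolation and activation is unclear. It is also unstated whether naive cells were cultured for 3 hours and whether replicate libraries are from different animals. The p-values therefore measure the spread between these libraries, which may be technical.

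Nearly all mitochondrial proteins are made in the cytosol and imported. The TOM complex of the outer membrane is the common entry gate. Behind it, small TIM chaperones of the intermembrane space carry hydrophobic precursors, the TIM22 complex inserts metabolite carriers into the inner membrane, and the TIM23 complex with its motor takes up precursors that bear a cleavable presequence. T cell activation is known to be followed by growth of the mitochondrial compartment, which depends on this machinery.

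Total counts ran from 12647692 to 17605549 per library. CD4 T cell markers summed to 6036 to 6382 CPM (read counts relative to library size, scaled by the TMM method) at 39 °C, 5830 to 6083 at 37 °C and 5205 to 6137 in naive libraries, over 9 genes that include Cd4 and Cd3e. Single markers of this list differed in both directions. By edgeR 2 rose and 3 fell at 39 °C against naive cells and 2 rose and 4 fell at 37 °C, with log2 fold changes at 37 °C of 1.24 for Cd5, 0.77 for Cd6, -0.82 for Il7r, -0.47 for Cd3d, -0.44 for Cd3g and -0.39 for Cd4. Markers of other cells were higher in naive libraries. The sum of 13 B cell markers was 299 to 312 CPM at 39 °C, 274 to 287 at 37 °C and 788 to 937 in naive cells, and that of 8 erythroid markers was 3.11 to 4.25, 3.17 to 3.34 and 136 to 226 CPM in the same order. The sum was 12.6 to 14.6, 13.5 to 15.1 and 25.8 to 36.1 CPM for both CD8 T cell markers, 1.43 to 2.06, 1.07 to 1.86 and 9.95 to 12.7 CPM for 8 myeloid markers, and 0.0623 to 0.279, 0.233 to 0.286 and 2.93 to 4.33 CPM for 4 NK cell markers. Cd14 and Slc4a1 were at 0 counts at 39 °C and S100a9 at 37 °C. Of the listed markers that could be tested, 11 of 13 B cell, 5 of 5 erythroid, 3 of 4 myeloid, 2 of 2 NK cell and 2 of 2 CD8 markers fell at 37 °C against naive cells by edgeR, and 1 B cell marker rose. Between 39 °C and 37 °C 0 markers were called in any of these lists. By edgeR 3 of 13 B cell markers had unadjusted p under 0.05, beside 1061 of the 13328 genes tested. The part of these cells in the activated against naive differences below was not tested. In bulk RNA, fewer cells of a type and less RNA per cell cannot be told apart.

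The DNA just before the start sites of 4 members that rose with activation and hold a marked match is shown first. Motif matches in these windows are described next to the expression values. The sequences are the 150 bases before the start in RefSeq (GRCm38.p6), read 5′ to 3′ on the strand of the gene. Capitals mark matches to the E-box CACGTG, the site of MYC and related factors, or to CCGGAAGT, a site of ETS factors such as GABP, on either strand. Not shown are 2 further members with matches in these 150 bases. Timm8a2, which was not called, holds 2 matches to CCGGAAGT, and Tomm20l, which was not tested, holds 1 E-box.
Timm9 (chr12:71136676-71136825, minus strand): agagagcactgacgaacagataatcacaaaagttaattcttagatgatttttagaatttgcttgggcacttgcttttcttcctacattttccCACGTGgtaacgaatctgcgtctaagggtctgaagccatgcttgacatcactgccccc
Tomm20 (chr8:126945922-126946071, minus strand): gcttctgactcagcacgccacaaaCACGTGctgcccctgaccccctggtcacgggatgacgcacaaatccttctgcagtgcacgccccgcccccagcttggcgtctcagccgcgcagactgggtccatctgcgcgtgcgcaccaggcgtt
Timm23 (chr14:32201892-32202041, minus strand): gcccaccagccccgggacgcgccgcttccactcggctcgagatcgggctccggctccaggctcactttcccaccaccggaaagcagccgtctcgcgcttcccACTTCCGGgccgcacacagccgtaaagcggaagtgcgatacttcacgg
Tomm70a (chr16:57121564-57121713, plus strand): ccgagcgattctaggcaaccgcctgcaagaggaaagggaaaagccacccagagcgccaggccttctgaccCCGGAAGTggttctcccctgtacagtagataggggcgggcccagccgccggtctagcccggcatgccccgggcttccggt

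RefSeq promoter windows, from 250 bases before to 50 bases after the start, were matched for 23 of the 26 genes, all but Timm21, Tomm40l and Tomm7. The E-box letters stood in the windows of 5 of these 23 genes (21.7%), namely Timm9, Timm10, Timm8a1, Tomm20 and Tomm20l, against 8.09% of all genes with such a window. In Timm9 the E-box began 58 bases before the start and a further match lay across the start, and in Tomm20 it began 126 bases before it. CCGGAAGT was found in 6 genes (26.1%), which were Timm10, Timm10b, Timm23, Timm29, Timm8a2 and Tomm70a, against 4.31% of all genes. The letters of the NRF1 core GCGCATGC were found in 1 gene, Timm13 (4.35%, against 3.05% of all genes), those of the heat shock element core GAANNTTC in 1, also Timm9 (4.35%, against 9.04%), and TATAAA in 2, Timm13 and Tomm5 (8.70%, against 15.7%). Both strands were searched in each case. Of the 5 genes with the E-box letters, Timm9, Timm10, Timm8a1 and Tomm20 rose with activation and Tomm20l had too few counts to test. Of the 6 with the ETS letters, Timm10, Timm23 and Tomm70a rose at both temperatures, Timm29 was called at 37 °C alone, and Timm10b and Timm8a2 were not called. Among the other members with a window, Tomm40, Tomm5, Timm50, Timm17a, Timm17b, Timm44 and Timm8b rose at both temperatures. Timm22 was called at 39 °C alone, Tomm22, Timm13, Pam16 and Tomm34 were not called, and Tomm6 was not tested. Of all genes tested, 30.9% were called higher at 37 °C and 29.2% at 39 °C. The motif shares of all genes are not limited to genes tested, and a link of motif and rise was not tested.

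Many genes of the import machinery rose with activation, and 1 fell. Of the 24 members with enough counts to be tested, 14 rose at 37 °C against naive cells, 1 fell and 9 were not called, by edgeR's quasi-likelihood test adjusted over all 13328 genes tested. The share called in either direction, 62.5%, was close to the 62.7% called among all genes. The direction was uneven, with 58.3% of the members called higher against 30.9% of all genes, and 1 called lower against 31.8% of all genes. The median log2 fold change of the tested members was 0.39, against -0.0025 over all genes, and their range was -0.52 to 1.62. At 39 °C against naive cells 14 also rose and 1 fell, beside 58.9% of all genes called in either direction, 29.2% called higher and 29.8% called lower. The median at 39 °C was 0.44. With upper-quartile scaling the medians were 0.31 at 39 °C and 0.25 at 37 °C, and without naive library 1 they were 0.59 and 0.52. Both comparisons use the same naive libraries. In each of them 6 members were at least 2-fold higher. By complex, 4 of 7 tested TOM genes rose and 1 fell, 4 of 6 small TIM genes rose, 5 of 7 genes of the TIM23 complex and its motor rose and 1 of 3 TIM22 genes rose, with the same counts at both temperatures.

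**Figure D1:**
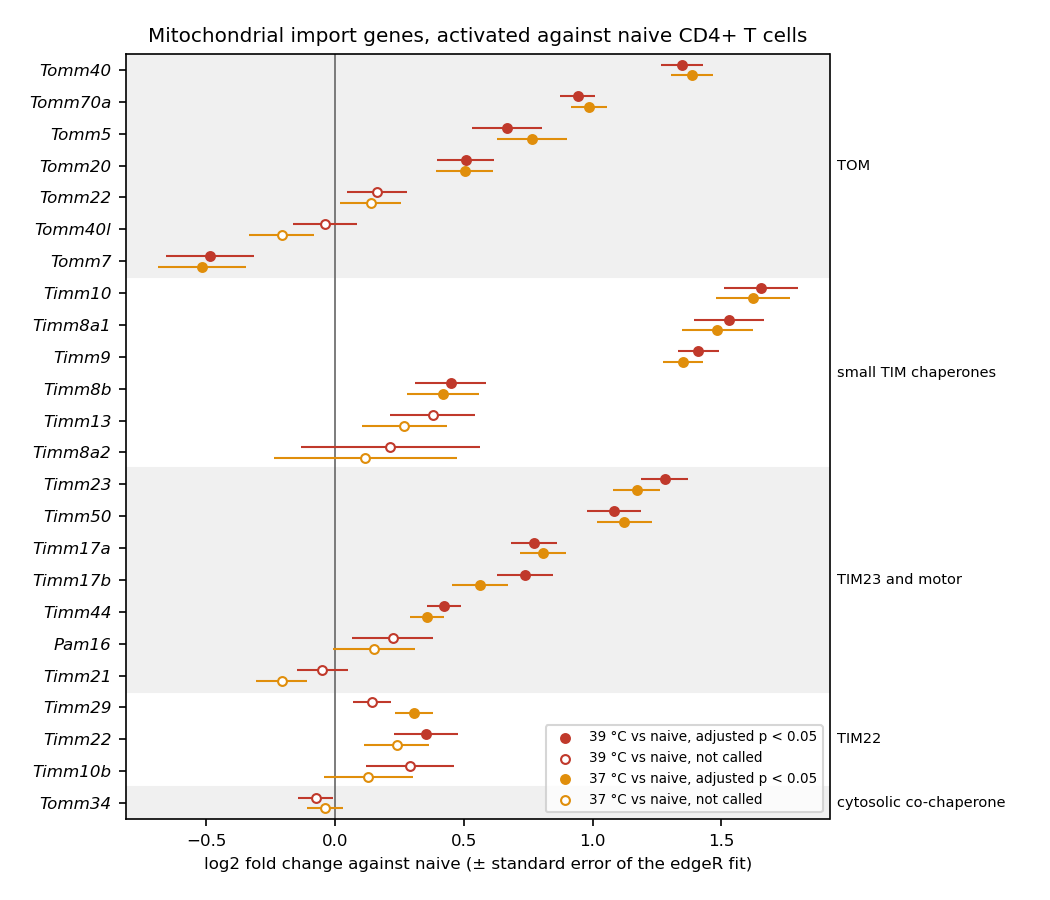
Log2 fold change of the 24 tested import genes in cells activated at 39 °C (red) and at 37 °C (orange) against naive cells, with the standard error of the edgeR fit and n = 3 per group. Filled points passed adjusted p of 0.05. Genes are grouped by complex, and Timm10, Timm8a1, Timm9 and Tomm40 lie farthest to the right while Tomm7 is the one filled point left of 0.

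In the outer membrane, Tomm40, the pore through which nearly all precursors pass, changed most. It lies on chromosome 7 at 19701313 to 19715438. Tomm40 had 135, 123 and 117 CPM at 39 °C and 128, 128 and 128 CPM at 37 °C, against 52.2, 43.6 and 51.1 CPM in naive cells. Every activated library thus stood above every naive one, and the log2 fold change of 37 °C over naive was 1.38 ± 0.081 (SE, adjusted p = 3.29e-08, edgeR). Activated and naive libraries did not overlap, in either direction, in 14 of the 24 tested members at 37 °C and 16 at 39 °C. Among the 13328 genes tested this held for 8714 and 8169. The receptor gene Tomm70a, whose product receives carrier precursors together with cytosolic chaperones, averaged 198 ± 1.14 CPM at 39 °C, 204 ± 7.86 at 37 °C and 103 ± 7.25 in naive cells (SD, n = 3), a log2 fold change of 0.99 ± 0.068 at 37 °C. The presequence receptor gene Tomm20 was called as well at 0.50 ± 0.11, and so was Tomm5, a small subunit, at 0.76 ± 0.14. Tomm22, the central receptor, was not called, at 0.14 ± 0.12 on the log2 scale (adjusted p = 0.325, edgeR). Without naive library 1 it was called, at 0.31 for 39 °C and 0.28 for 37 °C.

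Tomm7, a small subunit that also takes part in stabilising PINK1 on the outer membrane, was the one member called lower. It lies on chromosome 5 at 23838944 to 23844161. Tomm7 had 44.5, 39.7 and 32.5 CPM at 39 °C and 38.2, 35.2 and 41.0 CPM at 37 °C, against 72.4, 44.5 and 46.9 CPM in naive cells. Naive library 1 stood well above the other 2, and the highest 39 °C library and the lowest naive library nearly touched. The log2 fold change was -0.49 ± 0.17 at 39 °C (adjusted p = 0.027) and -0.52 ± 0.17 at 37 °C (adjusted p = 0.0192, edgeR). Without naive library 1 these values were -0.23, not called, and -0.26, still called. The call at 39 °C was also lost without 39 °C library 2 (-0.50) or 3 (-0.37), and that at 37 °C without 37 °C library 1 (-0.51) or 2 (-0.46).

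The pore paralog Tomm40l was at 8.61 ± 1.08 CPM at 39 °C, 7.68 ± 0.359 at 37 °C and 8.87 ± 0.757 in naive cells and was not called in either comparison. With upper-quartile scaling it was called lower at 37 °C (-0.34). Per kilobase of transcript, the level of Tomm40 exceeded that of Tomm40l in every group, at 77.4 against 2.29 CPM per kb at 39 °C, 79.4 against 2.04 at 37 °C and 30.4 against 2.36 in naive cells. Of the annotated exon bases of Tomm40l, 64.3% overlap Nr1i3, which had 1, 5 and 5 counts over the 39 °C, 37 °C and naive groups, so reads of the overlap cannot be assigned with certainty. The remaining outer membrane members were below the count filter. Tomm20l, a paralog of Tomm20 whose window holds the E-box letters, had 1 count over the 39 °C group, 4 over the 37 °C group and 0 over the naive group, where a count of 0 allows up to 3, and no fold is given. Tomm6, a small subunit, had 4, 2 and 1 counts over the 39 °C, 37 °C and naive groups. Exons of other genes cover 84.2% of its exon bases. Among these genes are Gm21981 on the same strand, with 1, 0 and 0 counts in the same order, and Usp49 on the other, with 430, 431 and 334. The level of Tomm6 cannot be read from these counts.

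Among the small TIM chaperones the members of the TIM9 and TIM10 hexamer, which ferries carrier precursors, rose together with Timm8a1. Timm10 (chromosome 2, 84826997 to 84830213) showed the largest rise of all tested members. It had 35.5, 33.7 and 30.7 CPM at 39 °C and 32.7, 32.1 and 33.0 CPM at 37 °C, against 12.2, 7.50 and 11.9 CPM in naive cells. The groups were far apart, with naive library 2 lowest, and the log2 fold change was 1.65 ± 0.14 at 39 °C (adjusted p = 1.11e-06) and 1.62 ± 0.14 at 37 °C (adjusted p = 1.23e-06, edgeR). Its window carries both the E-box and the ETS letters, which begin 28 and 16 bases after the start.

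Timm9 (chromosome 12, 71123173 to 71136684), the partner of Timm10 in the hexamer, had 64.8, 65.7 and 62.8 CPM at 39 °C and 61.0, 62.3 and 62.2 CPM at 37 °C, against 26.3, 21.5 and 24.9 CPM in naive cells. The spread within each activated group was small beside the distance to naive cells, and the log2 fold change was 1.41 ± 0.079 at 39 °C and 1.35 ± 0.079 at 37 °C. Per kilobase of transcript, Timm9 stood at 77.1 ± 1.8, 74.0 ± 0.85 and 29.0 ± 3.0 CPM per kb at 39 °C, at 37 °C and in naive cells, and Timm10 at 53.1 ± 3.8, 52.0 ± 0.71 and 16.8 ± 4.2 (SD, n = 3). Timm9 was thus above Timm10 in each group on this scale, which uses transcript lengths of 836 and 627 bases. The order depends on that choice. All annotated exons of the genes span 4282 and 815 bases, and scaled by these Timm9 would lie below Timm10 in each group.

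Timm8a1 (chromosome X, 134537256 to 134541865), the mouse counterpart of the human gene affected in deafness-dystonia syndrome, had 11.2, 8.66 and 9.90 CPM at 39 °C and 9.07, 9.72 and 10.2 CPM at 37 °C, against 3.64, 3.36 and 3.33 CPM in naive cells. It rose by a log2 fold change of 1.53 ± 0.14 at 39 °C and 1.49 ± 0.14 at 37 °C. Timm13, which assembles with TIM8 proteins, showed wide and overlapping groups, with 81.4, 73.7 and 59.6 CPM at 39 °C and 67.0, 61.9 and 70.1 CPM at 37 °C, against 70.8, 41.1 and 53.2 CPM in naive cells. It was not called, at 0.38 ± 0.17 for 39 °C and 0.27 ± 0.17 for 37 °C. Without naive library 1 it was called in both comparisons, at 0.60 and 0.49, and without 39 °C library 3 it was called at 39 °C (0.50). With a replicate block it was called at 39 °C (0.39), and with every gene with a count tested it was called in both, at 0.38 and 0.27.

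The second TIM8 gene, Timm8b, rose less, by 0.45 ± 0.14 at 39 °C (adjusted p = 0.0145) and 0.42 ± 0.14 at 37 °C (adjusted p = 0.0196, edgeR). The call at 39 °C was lost without 39 °C library 1 (0.39), and the one at 37 °C without naive library 2 or 3 or 37 °C library 1 or 3 (0.30 to 0.40). Exons of Nkapd1 on the other strand cover 15.6% of the exon bases of Timm8b. Timm8a2 was close to the detection limit, with 31, 28 and 29 counts over the 39 °C, 37 °C and naive groups, and was not called.

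**Figure D2:**
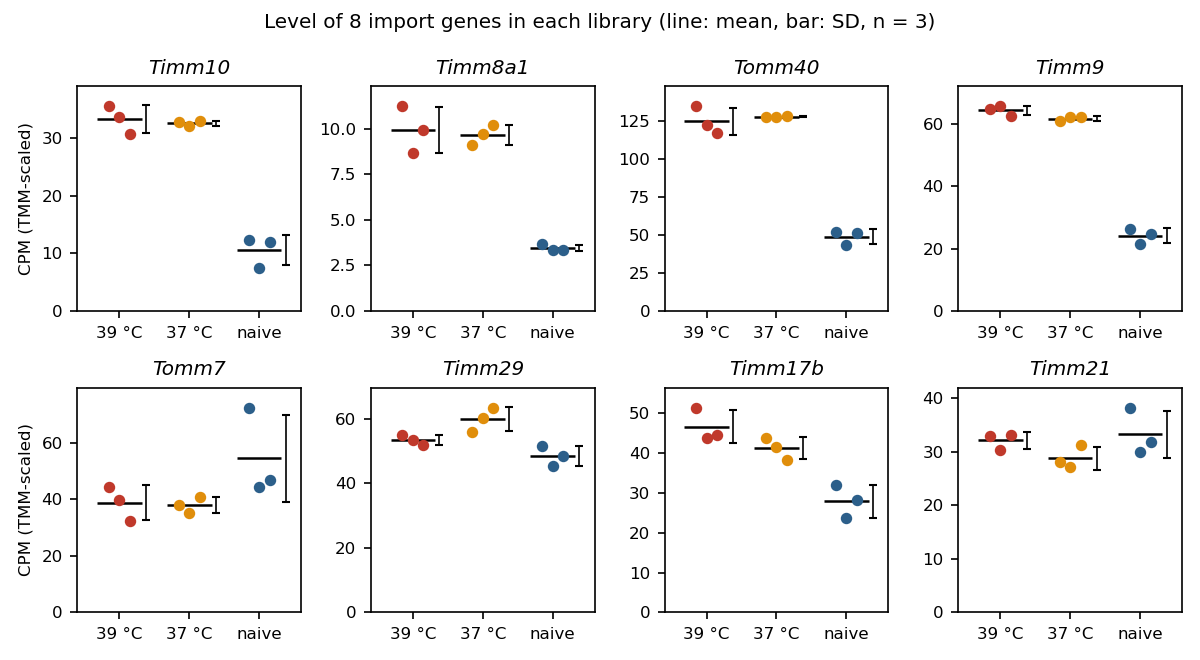
Level of 8 import genes in each library, in CPM on a linear axis from 0, with the group mean (line) and SD (bar, n = 3). Timm10, Timm8a1, Tomm40 and Timm9 are higher in all activated libraries than in any naive one, Tomm7 is lower, and Timm29, Timm17b and Timm21 are the members with the lowest p between 39 °C and 37 °C.

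The core of the TIM23 complex also rose. Timm23, the channel subunit, averaged 84.7 ± 5.36 CPM at 39 °C, 78.6 ± 4.21 at 37 °C and 34.9 ± 4.21 in naive cells (SD, n = 3), with a log2 fold change of 1.28 ± 0.092 at 39 °C and 1.17 ± 0.092 at 37 °C. Timm50, the receptor that hands presequences to the channel, averaged 77.9 ± 5.90, 80.2 ± 3.42 and 36.8 ± 5.92 CPM in the same order, a rise of 1.08 ± 0.11 and 1.12 ± 0.11 on the log2 scale. The genes of the alternative channel partners were both called, Timm17a at 0.77 ± 0.090 and 0.81 ± 0.090 and Timm17b at 0.74 ± 0.11 and 0.56 ± 0.11. Per kilobase of transcript, Timm17b was at 19.6 CPM per kb at 39 °C and 17.3 at 37 °C, against 11.7 in naive cells. Timm17a was at 7.14 and 7.32, against 4.19. The order depends on the transcript lengths used, 2381 bases for Timm17b and 7280 for Timm17a. In CPM the mean of Timm17a was the higher in each group. It was 52.0 against 46.6 at 39 °C, 53.3 against 41.3 at 37 °C and 30.5 against 28.0 in naive cells.

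Of the other members placed with the TIM23 complex, 1 was called. Timm44, the anchor of mitochondrial Hsp70 at the channel, rose by 0.42 ± 0.066 at 39 °C and 0.36 ± 0.066 at 37 °C. Pam16, which restrains the J protein of the motor, was not called at 0.22 ± 0.16 and 0.15 ± 0.16. Exons of Glis2 on the other strand cover 18.7% of the exon bases of Pam16. Timm21, which links the complex to TOM and to respiratory chain assembly, was not called at -0.049 ± 0.099 for 39 °C and -0.21 ± 0.10 for 37 °C. Without naive library 2 Timm21 was called lower at 37 °C (-0.28), as it was with library size scaling (-0.23) or upper-quartile scaling (-0.34).

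The TIM22 complex had the lowest median log2 fold change of the 4 complexes, 0.29 at 39 °C and 0.24 at 37 °C. Its channel gene Timm22 was called at 39 °C, at 0.35 ± 0.12 (adjusted p = 0.0278), and not at 37 °C, at 0.24 ± 0.13 (adjusted p = 0.116, edgeR). Timm29, a subunit found in animals, was called at 37 °C, at 0.31 ± 0.074 (adjusted p = 0.00328), and not at 39 °C, at 0.14 ± 0.074 (adjusted p = 0.115, edgeR). A call at one temperature and not at the other is no test of their difference, which follows below. The call of Timm22 was lost without naive library 2 (0.25) or 39 °C library 1 (0.24) or 2 (0.37), and that of Timm29 at 39 °C appeared without naive library 1 (0.19). Timm10b, which docks the small TIM chaperones to the complex, stood at 0.29 ± 0.17 and 0.13 ± 0.17. Without naive library 1 it was called at 39 °C (0.47). Exons of other genes cover 22.1% of its exon bases, so reads there cannot be assigned with certainty. Among these genes are Gm45799 on the same strand (14, 1 and 9 counts over the 39 °C, 37 °C and naive groups) and Arfip2 on the other (1579, 1510 and 1635). Tomm34, a cytosolic co-chaperone that shares only the name of the outer membrane genes, averaged 129 ± 1.29 CPM at 39 °C, 132 ± 3.12 at 37 °C and 136 ± 11.2 in naive cells and was not called. With upper-quartile scaling Tomm34 was called lower, at -0.20 for 39 °C and -0.17 for 37 °C.

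Between the temperatures no import gene was called. Of the 24 tested members 0 passed in either direction by edgeR, with 1 at unadjusted p under 0.05, beside 1061 of the 13328 genes tested. By DESeq2 0 members passed, with 0 at unadjusted p under 0.05. Among all genes, 0.758% were called in either direction, so few calls among 24 genes are to be read against a low background. The median log2 fold change of 39 °C over 37 °C was 0.038, against 0.0041 over all genes, and the members ranged from -0.16 to 0.18. The sign of that median turned without 37 °C library 2 (-0.00864) or 39 °C library 1 (-0.028). The 95% interval of the fit lay inside a 1.5-fold change in either direction for 23 of the 24 members. Timm8a2, with its few counts, was the exception, with an interval of -0.67 to 0.86 on the log2 scale.

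**Figure D3:**
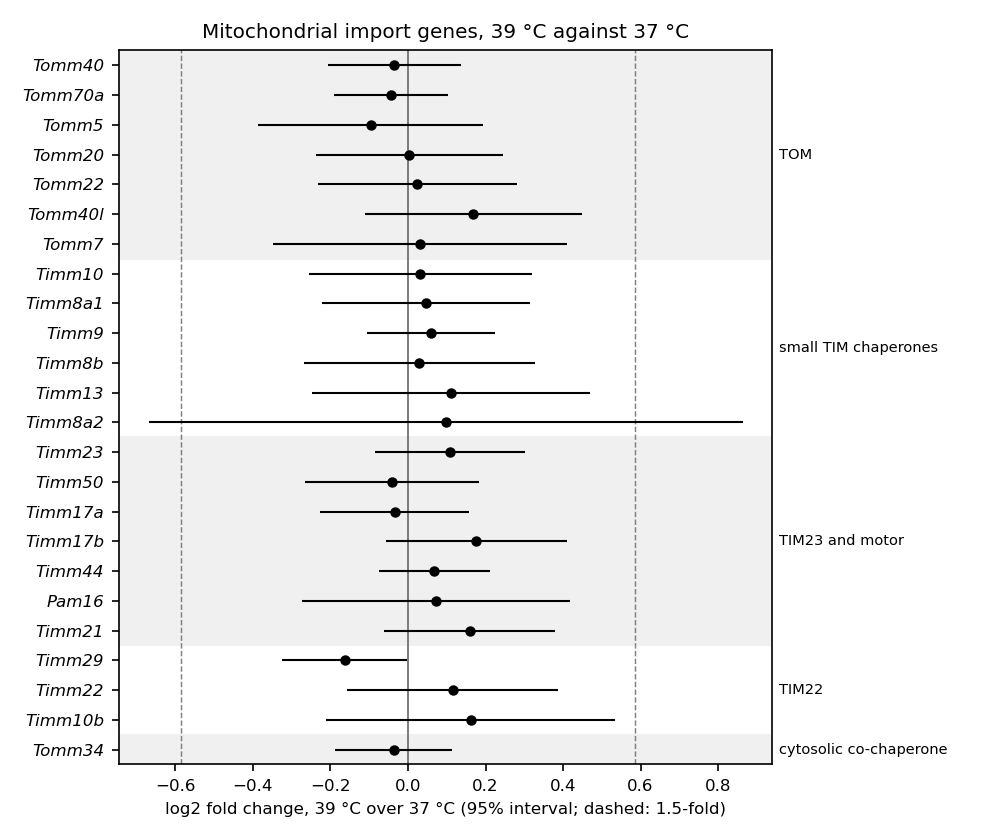
Log2 fold change of 39 °C over 37 °C for the 24 tested import genes with the 95% interval of the edgeR fit (n = 3 per group). Dashed lines mark a 1.5-fold change, which only the interval of Timm8a2 crosses, and the interval of Timm29 alone lies on one side of 0.

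The 3 members with the lowest p in this comparison illustrate its scale. Timm29 had 54.9, 53.5 and 51.9 CPM at 39 °C, against 55.9, 60.3 and 63.4 CPM at 37 °C. All its 39 °C libraries lay below all 37 °C ones by a narrow margin (log2 fold change -0.16 ± 0.074, adjusted p = 0.62, edgeR). The 2 temperatures did not overlap, in either direction, in 2 of the 24 tested members, Timm29 and Timm9, and in 2792 of the 13328 genes tested. Timm17b had 51.4, 43.8 and 44.7 CPM at 39 °C, against 43.8, 41.6 and 38.4 CPM at 37 °C (0.18 ± 0.11, adjusted p = 0.778). Timm21 had 32.8, 30.4 and 33.1 CPM at 39 °C, against 28.0, 27.2 and 31.2 CPM at 37 °C (0.16 ± 0.10, adjusted p = 0.795). In Timm21 the groups overlapped, and in Timm17b the lowest 39 °C library and the highest 37 °C library were level.

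The same 13 members were called higher in both activated groups. For 12 of them the call held in both comparisons under all 8 other settings and without each of the 9 libraries in turn. These were Tomm40, Tomm70a, Tomm5, Tomm20, Timm10, Timm9, Timm8a1, Timm23, Timm50, Timm17a, Timm17b and Timm44, while Timm8b was the exception.

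Within each group the members tended to be high or low in the same library. In naive cells 21 of the 24 tested members were highest in library 1 and 20 were lowest in library 2, against 44.0% and 40.7% of all tested genes. At 39 °C 18 were highest in library 1 and 17 lowest in library 3 (36.7% and 36.8% of all genes), and at 37 °C 17 were highest in library 3 and 15 lowest in library 2 (34.0% and 35.5%). The summed level of the 26 members was 1604, 1513 and 1438 CPM at 39 °C and 1512, 1466 and 1552 CPM at 37 °C, against 1172, 902 and 1008 CPM in naive cells. The naive libraries therefore spread most, and their highest sum still lay below the lowest activated one. Members are not independent replicates, and what the libraries share in this respect was not tested.

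**Figure D4:**
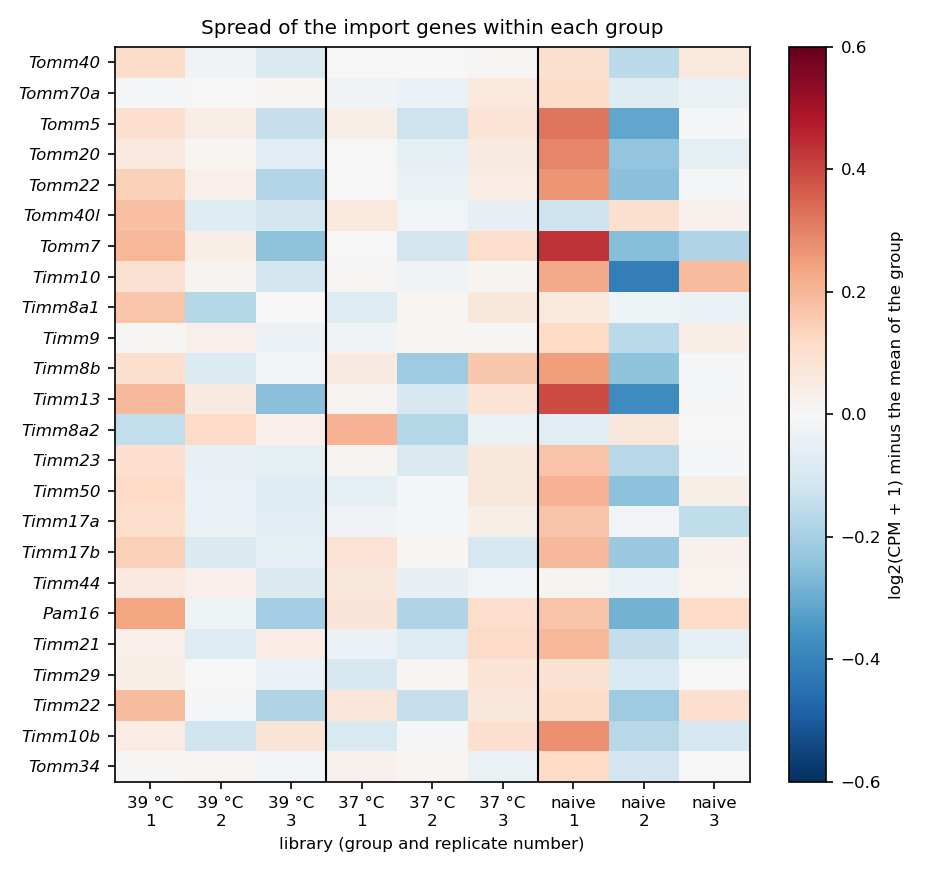
Deviation of each tested import gene in each library from the mean of its group, on the log2(CPM + 1) scale. The column of naive library 1 is mostly red (higher) and that of naive library 2 mostly blue (lower), with Tomm40l and Timm8a2 as exceptions in both columns.

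The partners of this machinery that lie outside the naming rule were followed as a list of 23 genes, of which 22 were tested and Immp2l was not. At 37 °C against naive cells 9 rose and 5 fell (median log2 fold change 0.15), and at 39 °C 10 rose and 4 fell (median 0.20). The share called in either direction was 63.6% at each temperature, beside 58.9% of all genes at 39 °C and 62.7% at 37 °C, and the share called higher was 45.5% at 39 °C and 40.9% at 37 °C, beside 29.2% and 30.9% of all genes. Chchd4, the oxidoreductase that folds the small TIM chaperones in the intermembrane space, averaged 52.3 ± 5.17 CPM at 39 °C, 52.9 ± 2.43 at 37 °C and 11.9 ± 1.83 in naive cells (SD, n = 3), a log2 fold change of 2.13 ± 0.11 and 2.15 ± 0.11. Its partner gene Gfer, the sulfhydryl oxidase, rose by 0.49 ± 0.097 and 0.42 ± 0.097. Hspa9, the Hsp70 that drives the import motor, averaged 596 ± 7.97, 565 ± 12.6 and 180 ± 6.32 CPM in the same order of groups and rose by 1.73 ± 0.065 and 1.65 ± 0.065.

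The nucleotide exchange factor genes Grpel1 and Grpel2, the Hsp70 helper gene Dnlz and Pmpca, a subunit gene of the presequence peptidase, rose as well, by 0.42 to 0.81 on the log2 scale at 37 °C. Pmpcb, the catalytic subunit gene of that peptidase, was not called, at 0.17 ± 0.093 and 0.12 ± 0.093. The motor J protein genes Dnajc19 (-0.12 ± 0.13 and -0.27 ± 0.14) and Dnajc15 (-0.041 ± 0.11 and -0.21 ± 0.11) were not called either. The inner membrane peptidase gene Immp1l (-0.53 ± 0.16 and -0.69 ± 0.16), the intermediate peptidase gene Mipep (-0.35 ± 0.13 and -0.50 ± 0.13) and the insertase gene Oxa1l (-0.20 ± 0.075 and -0.19 ± 0.075) fell at both temperatures. So did Romo1 (-0.42 ± 0.14 and -0.43 ± 0.14). Mtch1 was called lower at 37 °C (-0.18 ± 0.065) and not at 39 °C (-0.15 ± 0.065). Dnajc11 rose at both temperatures (0.87 ± 0.081 and 0.91 ± 0.081). Samm50, which inserts barrel proteins into the outer membrane, rose by 0.30 ± 0.084 and 0.21 ± 0.085, and Mtch2, an outer membrane insertase gene, was called higher at 39 °C (0.23 ± 0.088) and not at 37 °C (0.17 ± 0.088). Between 39 °C and 37 °C 0 of the 22 were called by edgeR, with 0 at unadjusted p under 0.05, beside 1061 of the 13328 genes tested.

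Other nuclear-encoded mitochondrial genes are given side by side with the import genes. The list for respiratory chain complex I was taken by symbol (Nduf, then a, b, c, s or v, and a digit). Ndufa4 and Ndufa4l2 are on it by name alone, so not every gene listed need encode a subunit of the complex. Of 36 tested genes of this list, 1 rose and 16 fell at 37 °C against naive cells (median log2 fold change -0.27). Of 77 tested mitochondrial ribosomal protein genes 24 rose and 10 fell (median 0.072). At 39 °C against naive cells the counts were 4 higher and 11 lower for complex I (median -0.13) and 28 higher and 9 lower for the ribosomal proteins (median 0.13). Between the temperatures edgeR called 0 genes in either list, with 1 and 2 at unadjusted p under 0.05, beside 1061 of the 13328 genes tested. At 37 °C 47.2% of the complex I genes and 44.2% of the ribosomal protein genes were called in either direction, beside 62.7% of all genes, and 31.2% of the ribosomal protein genes were called higher, beside 30.9% of all genes. At 39 °C 41.7% and 48.1% were called, beside 58.9% of all genes. The difference between these lists was not tested.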

How the data were processed

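Whole-number read counts per gene of 9 libraries were used as deposited, not normalised by the authors. The labels' protocols give TRIzol extraction of total RNA and a TruSeq RNA kit. Tools named in the submitters' processing notes are FastQC, HISAT2, HTSeq and DESeq2, with build GRCm38 and no roles, and the strand setting and the handling of reads that match several places are not given in the sources used here. Of 55573 gene identifiers 55480 matched GENCODE M21, which supplied symbols and coordinates. Levels per kilobase use the median length of APPRIS principal transcripts.

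Groups came from the labels. The filter was filterByExpr (count of at least 10, total of at least 15). Libraries were scaled by TMM (factors 0.980 to 1.05) and fitted with edgeR 4.0.16 (R 4.3.3), quasi-likelihood F test, 2-sided, 1 fit of all 9 libraries, Benjamini-Hochberg over 13328 genes, threshold 0.05. A standard error is the size of the log2 fold change over the root of F. The fit was tested on simulated counts. CPM use the effective library size. Intervals and the floor of 3 counts cover counting or fitted error only. The members, lists and the rule for named genes (all members; in detail the 4 largest rises, any fall, the 3 lowest p between temperatures and those below the filter) were chosen with earlier results of these data known. Other settings tried were scaling by RLE, by upper quartile or by total count, testing every gene with a count, DESeq2 1.42.0, the 6 libraries of a contrast, a replicate block, a threshold of 0.01 and leaving out each library. No 2 replicates were alike within sampling noise. The level of 1 marker gene is not reported here. The outlier check needs at least 4 samples a group and was not applied.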

Additional observations from a re-analysis of the deposited data

How the results depend on the processing

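The import genes called higher numbered 12 to 15 at 37 °C and at 39 °C against naive cells under each of the 8 other settings, 13 to 16 and 12 to 18 when 1 library was left out, and 0 between the temperatures throughout. The 1 gene called lower, Tomm7, was less stable. At 37 °C the count was 4 with upper-quartile scaling, 2 with library size scaling, 0 at a threshold of 0.01 and 0 to 2 with 1 library left out. At 39 °C it was 2 with upper-quartile scaling, 0 with the 6 libraries alone, 0 at a threshold of 0.01 and 0 to 1 with 1 library left out. The cause was not tested. Upper-quartile scaling moved the median of all genes to -0.14 at 37 °C and -0.13 at 39 °C, and the share of calls that were higher at 39 °C to 38.6%, against 49.5%. Under it Timm29 at 37 °C (0.17), Timm22 at 39 °C (0.23) and Timm8b at both (0.29 and 0.32) lost their calls, and 0 of the called members changed sign. The median of the tested members between the temperatures ran from -0.028 to 0.083 with 1 library left out, and turned to -0.00864 without 37 °C library 2 and to -0.028 without 39 °C library 1.

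Over all genes, calls at 39 °C against 37 °C (18 higher, 83 lower) were 43 and 133 with every gene with a count, 136 and 265 with the 6 libraries alone and 8 and 37 at a threshold of 0.01. DESeq2 called 38 higher. Leaving out 1 library gave 7 to 89 higher and 30 to 202 lower, with the most calls, 89 and 202, without naive library 1. Without naive library 2 the count of higher genes was 30, and without any 1 activated library counts were 7 to 8 higher and 30 to 43 lower.

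With a replicate block 14 import genes rose and 1 fell at 37 °C, 15 rose and 1 fell at 39 °C, and 0 were called between the temperatures. Whether the numbers pair the libraries could not be decided. Deviations of same-numbered libraries correlated at -0.24 to 0.43, and those of differently numbered libraries of different groups at -0.46 to 0.47. The deviations of 39 °C library 3 correlated best with those of naive library 2 (0.47). Summing reads of both strands could not be run, since each table holds 1 count per gene. Low counts limit Timm8a2, Tomm20l and Tomm6. For Tomm6, exons of other genes also cover 84.2% of the exon bases, so its low counts cannot be put down to depth.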
